A study of Homo sapiens with 12 samples.

Results

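The genes described here are CHML, DHFR2 and TSPYL4, which are retrogenes or intron-poor genes, together with their relatives CHM, TSPYL1, TSPYL2 and TSPYL5. They are 7 of the 60662 genes in the RNA count files. CHML, DHFR2 and TSPYL4 were chosen because they were low with STM2457 in these same libraries. Their own changes are therefore given as descriptions with no p-value. Where they are counted as past a threshold, nothing is read from it. The relatives were chosen by family. The cells were HEK293T, an established human embryonic kidney line. Treated cells were kept for 6 h with STM2457, which blocks the RNA methyltransferase METTL3, at 20 µM in 0.2% DMSO, and control cells for 6 h with 0.2% DMSO. Cells of both arms also received an additional 10% fetal bovine serum 1 h before lysis and 100 µg/ml cycloheximide, which arrests elongating ribosomes, for the last 3 min. Each arm had 4 RNA-seq replicates and 2 replicates of ribosome profiling (Ribo-seq), which reads the 26 to 34 nt of mRNA that ribosomes protect. Nothing in the labels ties replicates to separate cultures, so a p-value here covers only library-to-library spread, possibly technical.

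A retrogene arises when a spliced mRNA is copied back into the genome, which leaves a coding sequence without the introns of its parent. CHML encodes Rab escort protein REP2, and its parent CHM encodes REP1, both of which present newly made Rab GTPases to the geranylgeranyl transferase. DHFR2 is a retrogene of folate metabolism, the pathway that supplies single-carbon units for thymidylate and purine synthesis. TSPYL1, TSPYL4 and TSPYL5 are intronless genes of the TSPY-like family, which shares the nucleosome assembly protein (NAP) domain, whereas TSPYL2 contains introns. METTL3 places m6A on mRNA during transcription, and such marks are known to be frequent in long exons and sparse near exon junctions. m6A itself was not analysed here.

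The start regions are shown because each of the 3 intron-poor genes that were low with STM2457 starts within 1 kb of another protein-coding gene. TSPYL1, which was higher in RNA, does so too, and the share of all genes with such a neighbour was not counted. RefSeq (GRCh38.p14) gives CHML and OPN3 the same start on the same strand of chromosome 1. DHFR2 and NSUN3 start 145 bases apart on opposite strands of chromosome 3 and point away from each other. TSPYL4 and TSPYL1 lie 25.9 kb apart on chromosome 6, and each diverges from one of the alternative starts of DSE, at 96 and 156 bases. CHM and TSPYL2, both on the X chromosome, have no such neighbour within 1000 bases. The strands below are the minus strands of chr1:241640370-241640619, chr3:94062917-94063060, chr6:116254076-116254170 and chr6:116279931-116280085. The first is the 250 bases before the shared start and the others are the bases between 2 starts. Capitals mark TCTCGCGA, a CpG-containing promoter element that forms the core of a palindrome, and GGGCGG, the GC box, each searched on both strands.
CHML and OPN3 shared start: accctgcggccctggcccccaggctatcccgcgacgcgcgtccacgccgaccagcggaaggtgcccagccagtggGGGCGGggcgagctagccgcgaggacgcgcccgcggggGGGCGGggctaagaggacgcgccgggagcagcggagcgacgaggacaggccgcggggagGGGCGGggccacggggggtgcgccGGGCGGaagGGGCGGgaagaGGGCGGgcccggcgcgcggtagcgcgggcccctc
DHFR2 and NSUN3 between starts: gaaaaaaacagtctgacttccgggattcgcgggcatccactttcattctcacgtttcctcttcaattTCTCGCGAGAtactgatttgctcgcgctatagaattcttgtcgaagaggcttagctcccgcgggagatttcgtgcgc
TSPYL4 and DSE between starts: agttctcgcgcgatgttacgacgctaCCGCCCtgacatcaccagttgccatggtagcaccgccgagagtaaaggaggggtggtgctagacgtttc
TSPYL1 and DSE between starts: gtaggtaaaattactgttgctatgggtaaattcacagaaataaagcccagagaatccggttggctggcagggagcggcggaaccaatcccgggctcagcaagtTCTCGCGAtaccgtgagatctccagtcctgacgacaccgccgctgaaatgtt

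The CHML start region was 81.6% G+C and held 6 GC boxes, against 41.2% and none in the 250 bases before CHM. The median over protein-coding genes was 62.4% G+C, and 56.0% of their 250-base windows held a GC box. The DHFR2 region held TCTCGCGA on both strands in overlapping positions, because it carries the whole palindrome, and TSPYL1 held it on 1 strand. Of 15843 protein-coding windows of 250 bases, 1.56% held it. TSPYL4 and TSPYL2 each held 1 GC box and no TCTCGCGA in 250 bases. A match is a description of the letters and not a binding site.

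RNA-seq files held 43112223 to 51425432 gene counts per library. The footprint table gave 4039314 and 3898620 recovered reads in the STM2457 libraries and 4711513 and 3198063 in the DMSO libraries. All 6 HEK293T marker genes averaged at least 1 CPM (counts scaled to the library total), against 0 of 5 testis germ-line markers, whose summed level was 0.141 to 0.429 CPM with STM2457 and 0.133 to 0.254 CPM with DMSO. Fibroblast markers summed to 18.4 to 19.8 CPM with STM2457 and 17.7 to 22.3 CPM with DMSO, with 2 of 7 at 1 CPM or more, led by COL1A1. Blood markers summed to 2.76 to 2.94 CPM with STM2457 and 2.56 to 3.11 CPM with DMSO, with 1 of 5 at that level. 
Of the 7 genes, 6 had RNA-seq counts and passed the filters of all 3 tests, and TSPYL5 did not. In RNA, 4 of the 6 were past the threshold of edgeR's quasi-likelihood test (adjusted p under 0.05), with CHML, DHFR2 and TSPYL4 lower and TSPYL1 higher, beside 47.8% of the 17807 genes tested (21.6% lower and 26.2% higher). The arms did not overlap in RNA for the same 4 genes, beside 44.7% of all genes (19.8% lower and 24.9% higher). In footprints, tested with limma, CHML and TSPYL4 were past the threshold and lower, beside 15.7% of 10906 genes (6.13% lower and 9.59% higher), and the arms did not overlap for CHML, DHFR2, TSPYL4 and TSPYL2, all lower, beside 54% of genes (28.4% lower and 25.7% higher). In translational efficiency, the footprint level relative to the RNA level, TSPYL4 was past the threshold and lower, beside 1.04% of genes (0.807% lower and 0.229% higher). CHML, DHFR2 and TSPYL4 were chosen on these contrasts, so nothing is read from their counts.

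CHML (ENSG00000203668.2) was the escort protein gene that was low with STM2457, while its parent CHM (ENSG00000188419.14) stayed near its DMSO level. CHML had 31.3, 26.4, 28.5 and 25.0 CPM in STM2457 replicates 1 to 4, against 90.6, 84.6, 86.1 and 84.9 CPM in DMSO replicates 1 to 4. The arms did not overlap, and the STM2457 mean of 27.8 ± 2.75 CPM was 3.11-fold lower than the DMSO mean of 86.5 ± 2.76 CPM (SD, n = 4 each; log2 fold change -1.64, SE 0.06). CHM had 34.0, 34.4, 29.4 and 33.5 CPM with STM2457, against 36.6, 36.6, 35.1 and 33.8 CPM with DMSO. These ranges overlapped, and the log2 fold change of -0.11 (SE 0.05) had an adjusted p of 0.0837 in edgeR's quasi-likelihood test. CHM passed the threshold without DMSO replicate 4 (-0.14, adjusted p = 0.0464 by edgeR) and under scaling by upper-quartile factors (-0.22, adjusted p = 0.00164) or by the ERCC spike-ins (-0.31, adjusted p = 8.04e-05), which lower the median gene by 0.10 and 0.19. It also passed with a replicate block (-0.11, adjusted p = 0.0263 by edgeR) and without the filter on low counts (-0.12, adjusted p = 0.0357). In bulk RNA, fewer cells expressing a gene and less RNA per cell cannot be told apart.

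**Figure D1:**
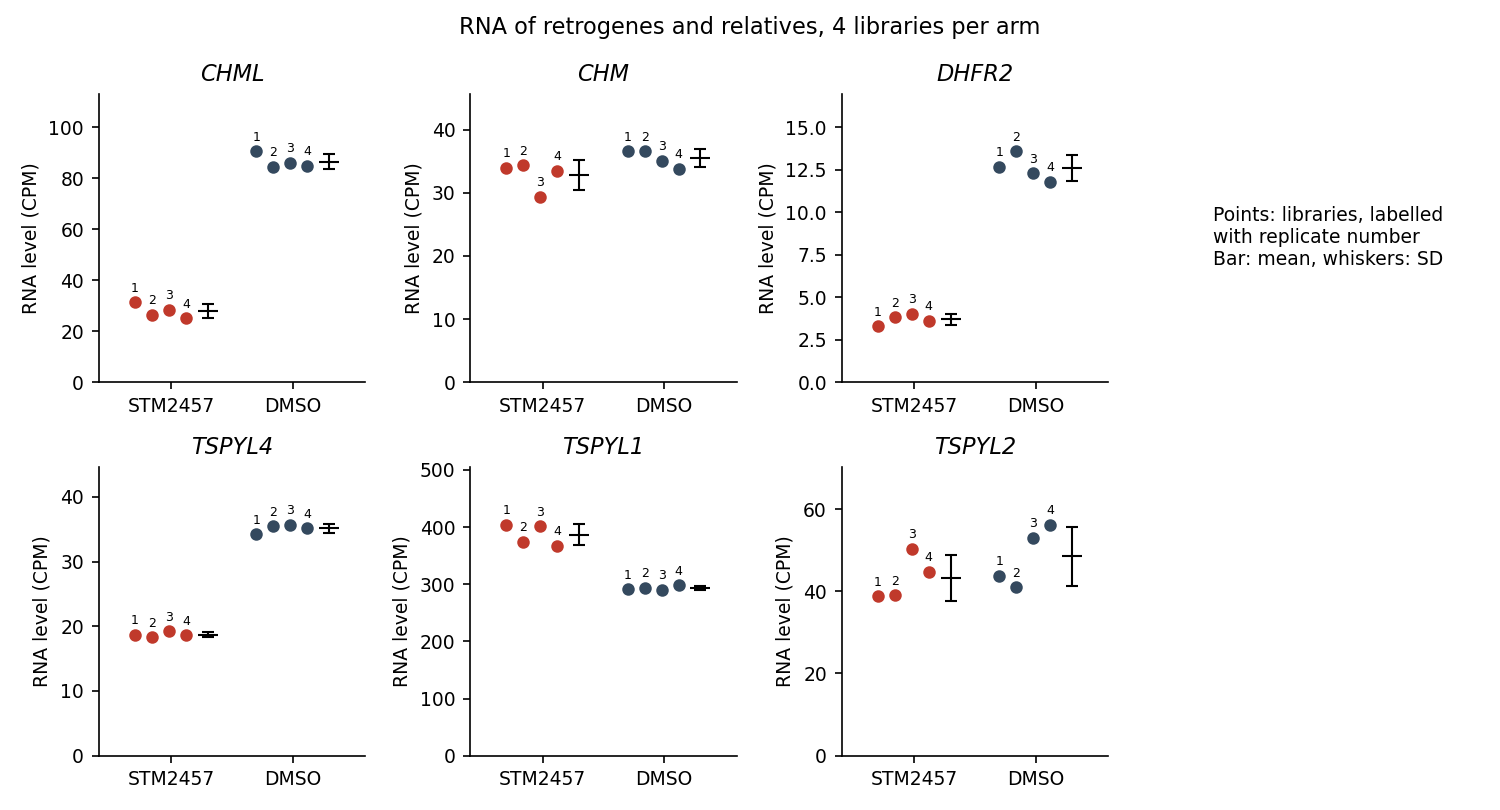
RNA level in CPM (linear axis from 0) of the measured intron-poor genes and their relatives in 4 STM2457 and 4 DMSO libraries. Points are libraries with their replicate number, and the bar with whiskers is the mean ± SD. CHML, DHFR2 and TSPYL4 are lower in every STM2457 library than in any DMSO library, TSPYL1 is higher, and CHM and TSPYL2 overlap.

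CHML was low in footprints too. Its footprint signal was 98.7 and 39.0 in STM2457 replicates 1 and 2, against 328 and 361 in DMSO replicates 1 and 2, from 26 and 10 reads against 102 and 75 reads. The STM2457 libraries lay apart from each other and both lay below the DMSO libraries. The log2 change of footprints was -2.45 (SE 0.32) on the log2(signal + 1) scale, or 5.47-fold lower, and it was -3.11 without STM2457 replicate 1 and -1.79 without STM2457 replicate 2. CHM footprints were 722 and 675 with STM2457, against 624 and 689 with DMSO, and overlapped between arms (0.09, SE 0.15, adjusted p = 0.771 by limma). The CHML efficiency was 0.352 with STM2457 and 0.542 with DMSO in the authors' deposited table, and that of CHM was 2.92 with STM2457 and 2.32 with DMSO. In DMSO these place CHML at percentile 18.6 and CHM at percentile 95.6 of the 12224 genes in the authors' deposited table. The log2 change of CHML efficiency was -0.70 (SE 0.39), and it rested on single footprint libraries: it was -1.36 without STM2457 replicate 1 and -0.05 without STM2457 replicate 2. The efficiency change of CHM was 0.29 (SE 0.25, adjusted p = 0.83 by limma).

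**Figure D2:**
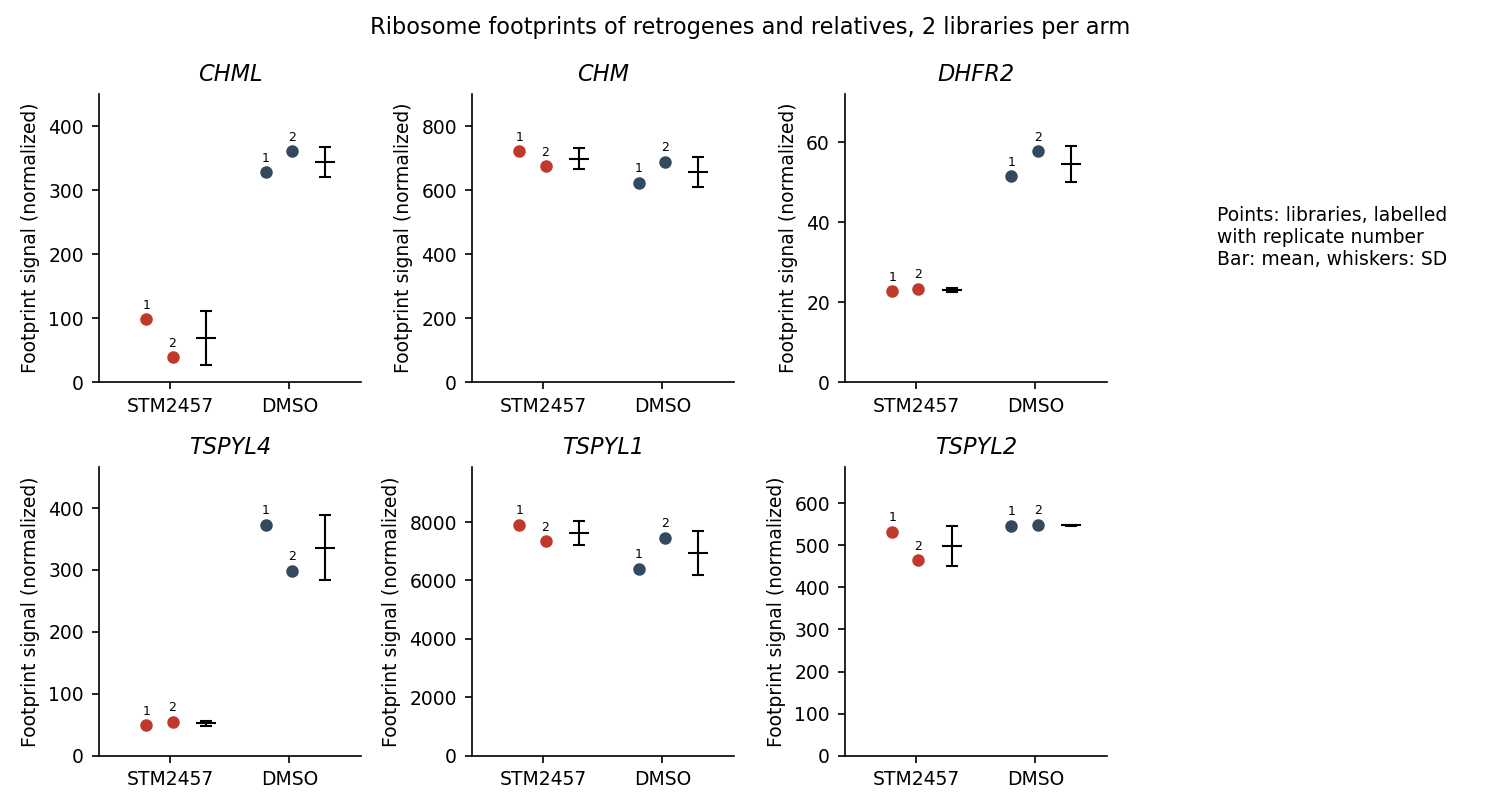
Normalized ribosome footprint signal (linear axis from 0) in 2 STM2457 and 2 DMSO libraries. Points are libraries with their replicate number, and the bar with whiskers is the mean ± SD. CHML lies at 98.7 and 39.0 with STM2457 against 328 and 361 with DMSO, and TSPYL4 at 49.4 and 54.7 against 373 and 299. CHM and TSPYL1 overlap between arms.

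DHFR2 (ENSG00000178700.7) had the lowest log2 fold change in RNA of the members. DHFR2 had 3.29, 3.83, 4.04 and 3.62 CPM with STM2457, against 12.7, 13.6, 12.3 and 11.8 CPM with DMSO. Every STM2457 library was below every DMSO library, and the means of 3.70 ± 0.32 and 12.6 ± 0.766 CPM (SD, n = 4 each) gave a log2 fold change of -1.77 (SE 0.07), or 3.42-fold lower. As a retrocopy, DHFR2 may share reads with similar sequences elsewhere in the genome, which the counts do not show.

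DHFR2 footprints were also lower, with a wide error. The footprint signal was 22.8 and 23.4 with STM2457, from 6 reads in each library, against 51.5 and 57.8 with DMSO, from 16 and 12 reads. Both STM2457 libraries were lower, by 1.21 on the log2(signal + 1) scale (SE 0.58), and so few reads leave the size of this difference uncertain. The efficiency was 1.27 with STM2457 and 0.957 with DMSO in the authors' deposited table, at percentile 46.2 of all genes in DMSO. The log2 change of DHFR2 efficiency was 0.32 with an SE of 0.48, which is smaller than its error.

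TSPYL4 (ENSG00000187189.10) was the measured member whose footprints and RNA parted the most. Its RNA was 18.7, 18.3, 19.2 and 18.6 CPM with STM2457, against 34.2, 35.5, 35.7 and 35.2 CPM with DMSO. The libraries within an arm were tightly grouped, at 18.7 ± 0.348 CPM with STM2457 and 35.2 ± 0.68 CPM with DMSO (SD, n = 4 each), a 1.88-fold lower level with STM2457 (log2 fold change -0.91, SE 0.04). TSPYL4 footprint signal was 49.4 and 54.7 with STM2457, from 13 and 14 reads, against 373 and 299 with DMSO, from 116 and 62 reads. Both STM2457 libraries were far below both DMSO libraries, and the signal was 6.33-fold lower on the log2(signal + 1) scale (log2 change -2.66, SE 0.31). The efficiency was 0.369 with STM2457 and 1.22 with DMSO in the authors' deposited table, so TSPYL4 was above the median of 1.01 in DMSO (percentile 63.5) and below the median of 1.00 with STM2457. The log2 change of efficiency was -1.70 (SE 0.24), number 10 from the lowest of 10906 genes. It ranged over -1.86 to -1.54 when single libraries of either assay were left out. TSPYL4 was 1 of 6 measured members past the efficiency threshold, beside a background of 1.04% of all genes. It was chosen as low in these same libraries, so nothing is read from that count.

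TSPYL1 (ENSG00000189241.7), an intronless gene as TSPYL4 is, rose in RNA. It had 404, 374, 401 and 367 CPM with STM2457, against 291, 294, 290 and 298 CPM with DMSO. The arms did not overlap, and the means of 386 ± 18.7 and 293 ± 3.66 CPM (SD, n = 4 each) gave a log2 fold change of 0.40 (SE 0.03, adjusted p = 4.26e-07 by edgeR). The increase was 0.20 under ERCC scaling and stayed past the threshold in each of the 13 alternatives run. TSPYL1 footprints were 7910 and 7340 with STM2457, against 6400 and 7460 with DMSO, from 1548 reads or more in each library. The ranges overlapped, and neither the footprint change of 0.14 (SE 0.09, adjusted p = 0.317 by limma) nor the efficiency change of -0.18 (SE 0.12, adjusted p = 0.747 by limma) passed the threshold. In DMSO the authors' deposited table places TSPYL1 efficiency at percentile 94.8.

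TSPYL2 (ENSG00000184205.14), the intron-containing relative, and TSPYL5 (ENSG00000180543.4) complete the family. TSPYL2 had 38.8, 39.0, 50.4 and 44.8 CPM with STM2457, against 43.8, 41.0, 53.0 and 56.2 CPM with DMSO. Replicates 3 and 4 were higher than replicates 1 and 2 in both arms, and the arms overlapped (log2 fold change -0.17, SE 0.10, adjusted p = 0.21 by edgeR). TSPYL2 passed the threshold without STM2457 replicate 3 (-0.25, adjusted p = 0.0457 by edgeR), under upper-quartile scaling (-0.27, adjusted p = 0.0499) and under ERCC scaling (-0.36, adjusted p = 0.00092). It also passed with a replicate block (-0.16, adjusted p = 0.00369 by edgeR) and without the filter on low counts (-0.17, adjusted p = 0.00048). TSPYL2 footprints were 532 and 465 with STM2457, against 547 and 549 with DMSO. Both STM2457 values were lower, but the change of -0.14 (SE 0.17, adjusted p = 0.657 by limma) did not pass the test. TSPYL5 had 0 counts in all 8 RNA-seq libraries, which allows a level of up to 0.0583 to 0.0696 CPM per library for 3 counts. That limit uses library totals without TMM factors and covers counting error only.

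**Figure D3:**
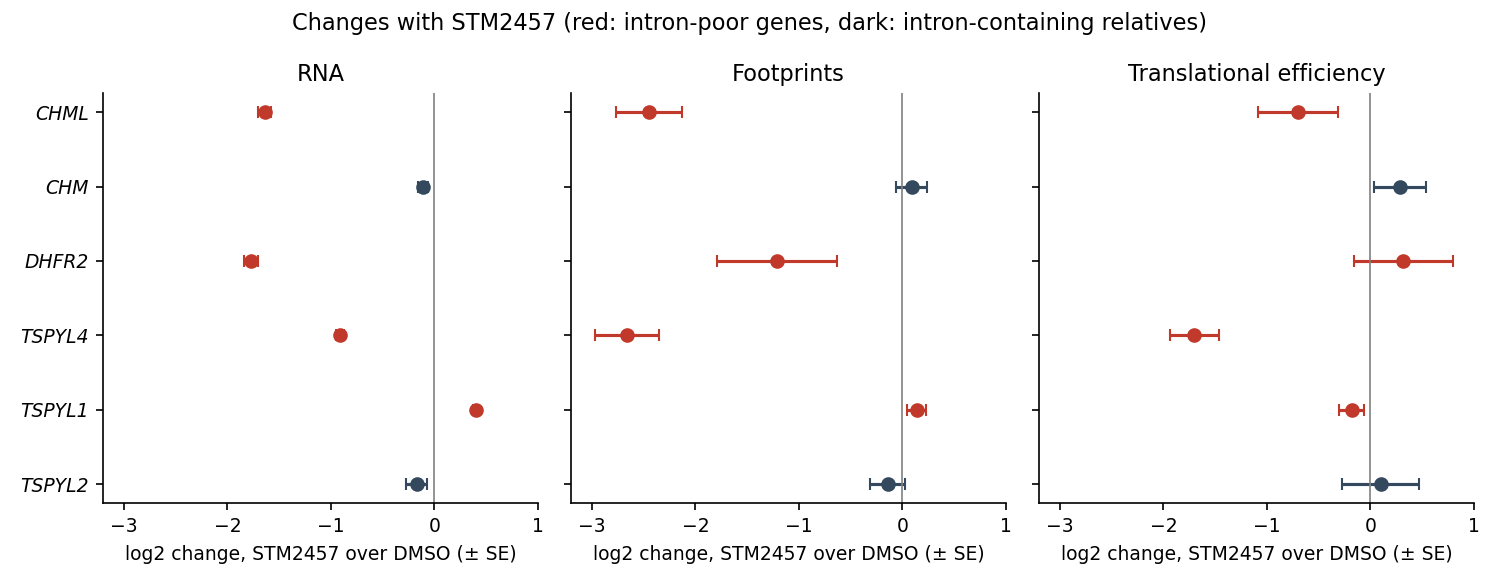
Log2 change with STM2457 relative to DMSO (points) ± SE (whiskers) for RNA, footprints and translational efficiency, with intron-poor genes in red and intron-containing relatives dark. CHML, DHFR2 and TSPYL4 lie at -1.64, -1.77 and -0.91 in RNA, and TSPYL4 at -1.70 in efficiency, while TSPYL1 lies at 0.40 in RNA.

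Within each library, the ratio of an intron-poor gene to its relative does not depend on library scaling. The genes differ in length, so only the difference of a ratio between arms is read, and the pairs were chosen with their changes known and carry no test. The log2 CPM ratio of CHML to CHM was -0.24 ± 0.19 with STM2457 and 1.28 ± 0.05 with DMSO (SD, n = 4 each), a difference of -1.53. For footprints the CHML to CHM ratio was -2.86 and -4.08 in the STM2457 libraries and -0.93 in both DMSO libraries, a mean difference of -2.54. CHM thus drew slightly more RNA-seq reads than CHML with STM2457, and CHML more than CHM with DMSO.

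TSPYL4 to TSPYL2 was -1.20 ± 0.16 with STM2457 and -0.45 ± 0.21 with DMSO in RNA (SD, n = 4 each), a difference of -0.75, nearer 0 than that of CHML to CHM. Its footprint ratio differed by -2.52, and by -2.69 to -2.35 when single libraries were left out, whereas that of CHML to CHM ran from -3.15 to -1.93. TSPYL1 to TSPYL2 had the opposite sign in RNA, at 3.17 ± 0.19 with STM2457 and 2.61 ± 0.21 with DMSO (SD, n = 4 each), a difference of 0.56, and by 0.28 in footprints. The intronless TSPYL genes therefore differed from each other: the TSPYL4 to TSPYL1 ratio was -4.37 ± 0.05 with STM2457 and -3.06 ± 0.03 with DMSO in RNA (SD, n = 4 each), a difference of -1.31, with -2.80 in footprints.

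**Figure D4:**
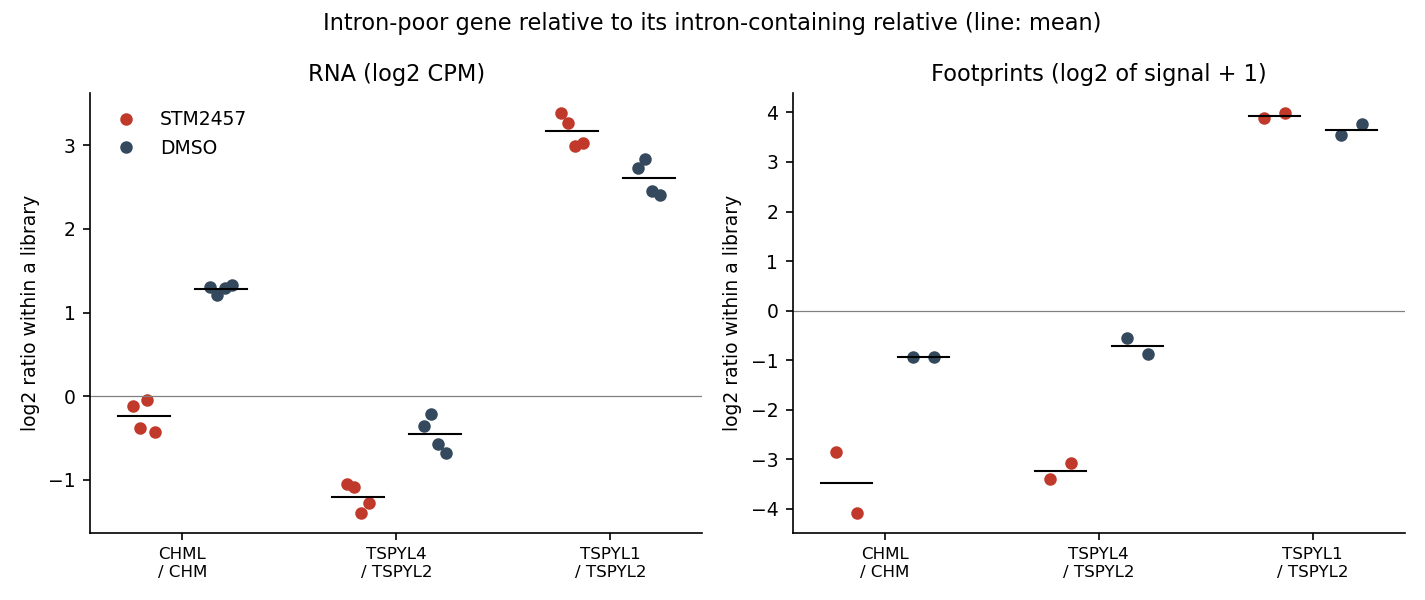
Log2 ratio of each intron-poor gene to its intron-containing relative within single libraries (points; the line is the mean), for RNA on the left and footprints on the right. The CHML to CHM and TSPYL4 to TSPYL2 ratios are lower in the STM2457 libraries, and the TSPYL1 to TSPYL2 ratio is higher.

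In RNA, the genes that share the start regions shown above moved against CHML, DHFR2 and TSPYL4. They were looked up after their values had been seen, so they are given with no test. OPN3, an opsin gene that shares its start with CHML, had 9.18, 9.10, 8.30 and 8.75 CPM with STM2457, against 5.97, 6.29, 6.14 and 5.56 CPM with DMSO. NSUN3, a mitochondrial tRNA methyltransferase gene divergent from DHFR2, had 37.0, 38.3, 32.4 and 35.7 CPM with STM2457, against 24.7, 25.8, 24.1 and 23.3 CPM with DMSO. Both genes were higher in every STM2457 RNA-seq library, by 0.56 (SE 0.06) and 0.55 (SE 0.05) on the log2 scale, where CHML and DHFR2 were lower. Of all 17807 genes tested in RNA, 24.9% were likewise higher with no overlap of the arms. The footprint change of NSUN3 was 0.46 (SE 0.20).

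DSE, which encodes dermatan sulfate epimerase and has starts beside both TSPYL4 and TSPYL1, had 61.8 ± 1.87 CPM with STM2457 and 45.0 ± 1.52 CPM with DMSO (SD, n = 4 each; log2 fold change 0.46, SE 0.03). That was close to TSPYL1 and opposite to TSPYL4: the TSPYL1 to DSE log2 ratio differed between arms by -0.06 and the TSPYL4 to DSE ratio by -1.37. The CHML to OPN3 ratio differed by -2.20 and the DHFR2 to NSUN3 ratio by -2.31, also in RNA. DSE footprints overlapped between arms (-0.08, SE 0.24), and the DSE efficiency change was -0.56 (SE 0.17), of the same sign as that of TSPYL4. CHML and OPN3 overlap on 1 strand, and which DSE start the reads came from cannot be told from counts per gene.

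**Figure D5:**
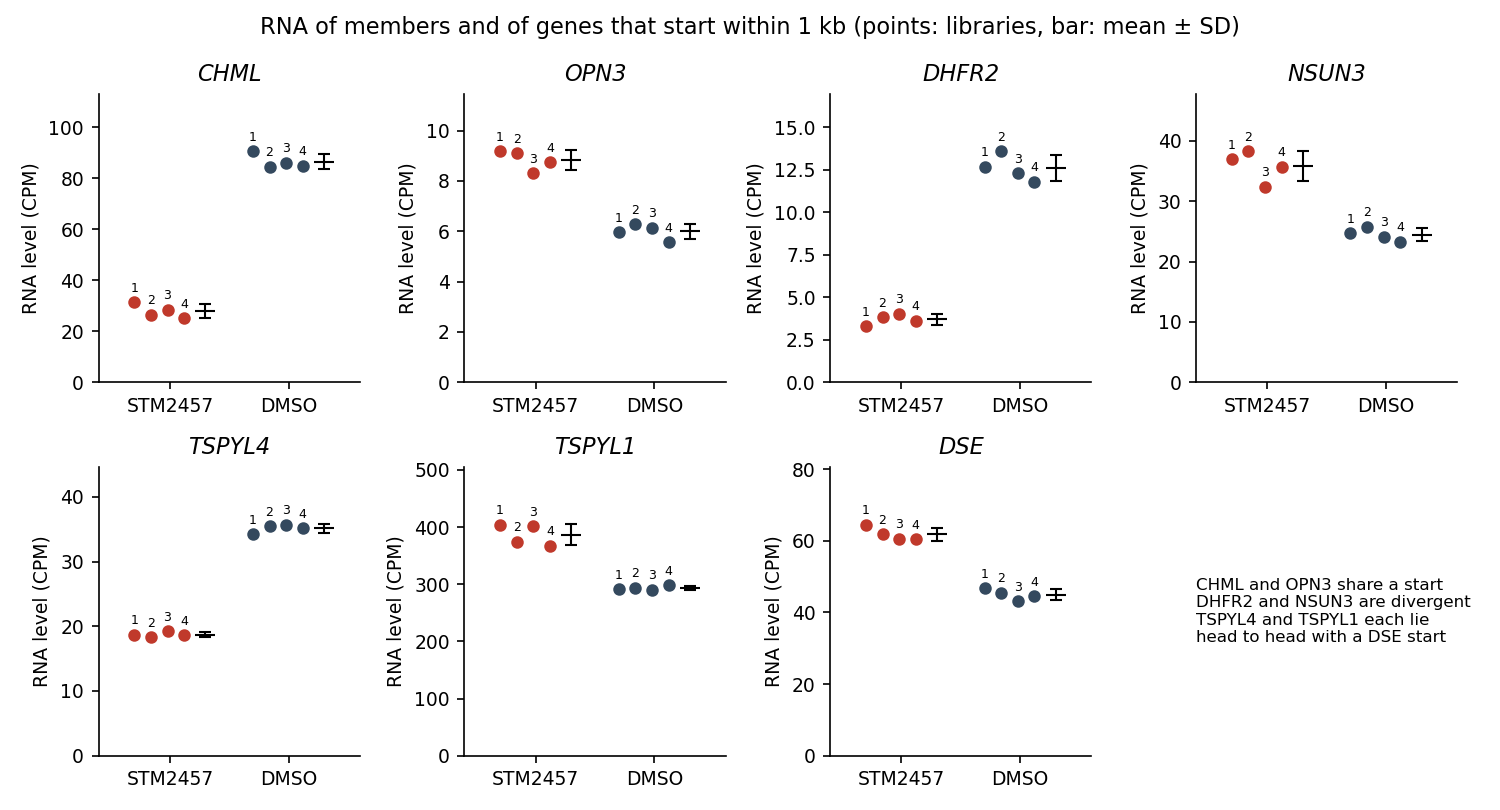
RNA level in CPM (linear axis from 0) of CHML, DHFR2, TSPYL4 and TSPYL1 and of genes that start within 1 kb of them, in 4 STM2457 and 4 DMSO libraries. Points are libraries with their replicate number and the bar with whiskers is the mean ± SD. OPN3, NSUN3 and DSE are higher in every STM2457 library, as TSPYL1 is, and CHML, DHFR2 and TSPYL4 are lower. Of all genes tested in RNA, 24.9% are higher and 19.8% lower with no overlap of the arms.

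The genes whose pattern over all 12 libraries was most like each low gene were found among 10294 genes by the root mean square difference of log2 values centred on the DMSO mean. For CHML they were PCNX4 (0.31), ATXN7L3B (0.39) and SDHAF1 (0.43), beside a median of 1.41 over all candidates. For DHFR2 they were FAAP100 (0.22), PCLO (0.23) and SMIM10 (0.25), beside a median of 1.15. For TSPYL4 they were ZNF33B (0.24), ZBED5 (0.26) and WDR6 (0.27), beside a median of 1.21. ATXN7L3B is itself an intronless copy, of ATXN7L3, and the exon structures of the other genes named here were not looked up.

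The pathways around these genes changed in both directions in RNA, with medians of -0.11 to 0.00 against 0.00 for all genes. The pathway lists were chosen with earlier results of these data known, so their p-values are descriptive. In footprints the medians were -0.24 for Rab prenylation and escort genes and -0.11 for Rab GTPases. They were -0.13 for the folate and thymidylate cycle and -0.15 for the NAP, SET and TSPY superfamily, against -0.02 for all genes. Of 11 Rab prenylation and escort genes, 5 rose and 4 fell in RNA with a median log2 change of -0.05, beside 26.2% of all genes higher and 21.6% lower. RABIF, a Rab chaperone, rose by 0.48 (SE 0.03, adjusted p = 7.38e-08 by edgeR) and FNTA, the shared subunit of the farnesyl and type I geranylgeranyl transferases, fell by 0.34 (SE 0.03, adjusted p = 2.47e-06). Of 56 Rab GTPases tested, the substrates of the escort proteins, 14 rose and 21 fell with a median of -0.04. RAB9A rose by 1.12 (SE 0.03, adjusted p = 9.91e-11 by edgeR) and its paralog RAB9B fell by 0.71 (SE 0.06, adjusted p = 4.87e-07). In footprints 4 of 46 Rab GTPases were called higher, among them RAB9A (adjusted p = 1.35e-08 by limma), no more than the 9.59% of all genes called higher. The footprint test also called 4 of 11 prenylation and escort genes, of which RABIF and GGPS1 rose and GDI2 and FNTA fell. Of all genes, 15.7% were called in footprints (9.59% higher and 6.13% lower).

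Of 25 folate and thymidylate cycle genes tested, 9 rose and 7 fell in RNA with a median of 0.00. The shares over all genes in RNA were 26.2% higher and 21.6% lower. SLC19A1, the reduced folate carrier, rose by 0.31 (SE 0.03, adjusted p = 1.22e-06 by edgeR) and ATIC, which closes the purine ring, fell by 0.25 (SE 0.02, adjusted p = 1.31e-06). In footprints 4 of 23 were called, all of them lower, beside 6.13% of all genes called lower and 15.7% in either direction. Among them was TYMS, thymidylate synthase, which fell by 0.41 (SE 0.10, adjusted p = 0.00117 by limma). Of 6 other genes of the NAP, SET and TSPY superfamily, NAP1L1 rose by 0.14 (adjusted p = 0.00553 by edgeR) and NAP1L2 and SET fell by 0.96 and 0.08 (adjusted p = 5.73e-08 and 0.0214 by edgeR), and 3 did not pass. In footprints NAP1L3 was the 1 of 5 called, at -0.91 (SE 0.25, adjusted p = 0.00713 by limma), and NAP1L2 did not pass (-0.64, SE 0.28, adjusted p = 0.121).

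Other retrogenes changed in both directions. Their list was chosen with earlier results of these data known, so its p-values are descriptive. Of 15 other retrogenes tested in RNA, 7 rose, 2 fell and 6 did not pass the test, with a median of 0.09. Among 28 parent genes 13 rose and 6 fell, and among all genes 26.2% were higher and 21.6% lower. The 2 that fell were ATXN7L3B by 1.88 (SE 0.04, adjusted p = 5.04e-12 by edgeR) and YY2 by 0.57 (SE 0.12, adjusted p = 0.00131), whereas the parent YY1 rose by 0.66 (SE 0.02, adjusted p = 1.38e-10). CHMP1B, RRAGA and TMEM185B rose by 0.62, 0.57 and 0.60, as TSPYL1 did. In the 15 pairs with both genes tested, the retrogene changed below its parent in 7 and above it in 8, with differences of -2.04 to 0.95. The lowest of these differences were -2.04 for ATXN7L3B and ATXN7L3 and -1.23 for YY2 and YY1, where the CHML to CHM ratio differed by -1.53. ATXN7L3B was also the 1 of 16 other retrogenes past the efficiency threshold, at -1.06 (SE 0.21, adjusted p = 0.0238 by limma), against -1.70 for TSPYL4. Of all genes, 1.04% were past that threshold.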

How the data were processed

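RNA-seq files hold raw counts per gene as deposited, and the deposited series table holds a normalized signal per library with the authors' efficiency as a ratio of mean footprint to mean RNA signal and its log2 change. The submitters' processing notes name STAR 2.7.3a, featureCounts (Subread 2.0.3), UMI-tools 1.1.2 and DESeq2, and the build GRCh38.p12. The strand setting of the counting is not given in the sources used here.

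In R 4.3.3, RNA counts entered edgeR 4.0.16 (quasi-likelihood test, TMM, filterByExpr, 92 ERCC sequences left out), and CPM used TMM factors. All values of the Ribo-seq columns came out as whole reads (100% within 0.1 of a read), so reads were recovered, and edgeR on these reads called 1112 genes higher and 607 lower. Footprints were tested with limma 3.58.1 on log2(signal + 1) for genes with a mean of at least 10 reads per library, and fold changes on that scale understate those of low genes. Efficiency was the limma interaction of assay and treatment with a weight per assay. P-values were Benjamini-Hochberg adjusted over all tested genes, at 0.05. Standard errors in edgeR are the log2 fold change over the square root of F. Log2 CPM used a prior count of 2. The procedures were also run on simulated data with a fixed spread per assay and no grouping of replicates. That run is no check on the replicate grouping of the real libraries.

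Symbols matched 42039 of 60662 gene IDs. The members and lists, and the rule for nearest patterns (genes of at least 5 CPM), were chosen with earlier results of these data known. Members are all named, 1 gene is not reported here, and list examples are those past the test with small p. Alternatives were DESeq2 1.42.0, other scalings, filters, pseudocounts, tests, a replicate block and leaving out each library. Exon structures and proteins were not used here.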

Additional observations from a re-analysis of the deposited data

How the results depend on the processing

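Under all alternatives run, CHML, DHFR2 and TSPYL4 kept their direction in RNA (-1.83 to -1.59, -1.97 to -1.72 and -1.11 to -0.90) and in footprints (-3.11 to -1.79, -1.29 to -1.08 and -2.82 to -2.50). TSPYL4 efficiency stayed between -1.86 and -1.54. The sign of TSPYL2 efficiency turned without Ribo-seq STM2457 replicate 1 (-0.001; -0.001 to 0.19 over single libraries left out). The cause was not tested.

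Counts of genes past the threshold moved further. Upper-quartile factors gave 6656 genes lower in RNA, and ERCC scaling 2159 higher and 8383 lower. For efficiency, 1 spread shared by both assays gave 339 higher and 486 lower, the edgeR interaction 94 higher and 428 lower, and no filter on reads 15 higher. Leaving out 1 library gave 4346 to 4767 higher and 3431 to 3880 lower in RNA, 742 to 844 higher and 262 to 620 lower in footprints, and 7 to 27 higher and 30 to 102 lower in efficiency.

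Same-numbered libraries did not stand out as pairs: their deviations correlated at 0.15, 0.23, 0.15 and 0.08 in RNA-seq, and at 0.01 in Ribo-seq. Across arms, RNA-seq replicates 1 and 2 correlated positively with each other (0.11 to 0.23), as did replicates 3 and 4 (0.08 to 0.27). Replicates 1 and 2 of one arm correlated negatively with replicates 3 and 4 of the other (-0.26 to -0.09). The source of this grouping was not tested. A replicate block gave 5094 genes higher and 4448 lower in RNA, and moved CHM (-0.11, adjusted p = 0.0263 by edgeR) and TSPYL2 (-0.16, adjusted p = 0.00369) past the threshold. Without the filter on low counts both passed too (adjusted p = 0.0357 and 0.00048). With 6 to 26 reads per STM2457 library, the footprint changes of DHFR2, CHML and TSPYL4 are limited by depth, as are their efficiency changes.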

Other observations

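OPN3 fell below the footprint filter and has no footprint test. It had 14 and 6 reads with STM2457 against 5 and 3 reads with DMSO.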
